A study of Saccharomyces cerevisiae with 2 samples.

Results

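The 10 genes described here carry ammonium into the yeast cell, build it into glutamate and glutamine, release it again, or switch these steps on and off. They are the ammonium permease genes MEP1, MEP2 and MEP3, the enzyme genes GLN1, GLT1, GDH1, GDH2 and GDH3, and the regulator genes GAT1 and DAL80. They were chosen by name, with earlier results of these data known. All 10 were found among the 7126 rows of the deposited expression table. The table itself named 6 of them, and the other 4 (MEP2, MEP3, GLN1 and GLT1) were found through the RefSeq symbol of the row's locus tag. The study grew Saccharomyces cerevisiae BL03-D-4, a BY4742-derived carotenoid producer, in YPM or in YPD medium for 24 h at 30 °C and sequenced 1 polyA-selected RNA library per medium. In both libraries the strain lacked GAL80 and ALD6 and carried crtB, crtI and crtE behind the HSP26 promoter and a truncated HMG-CoA reductase behind the CIT1 promoter. The paper names the control medium YPD2, which holds tryptone, glucose and yeast extract. YPM holds yeast extract of another manufacturer and, in addition, potassium phosphate, magnesium, potassium and sodium sulfate and a trace metal solution. The ammonium content of the media is not given in the sources used here, and the lot of yeast extract cannot be told apart from the added salts and metals. The paper describes the cells at this time as stationary.

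Yeast takes up ammonium through the permeases of the Mep family and joins it to 2-oxoglutarate to make glutamate, by the NADP-dependent glutamate dehydrogenases Gdh1 and Gdh3. Glutamine synthetase (Gln1) adds a further ammonium to glutamate, glutamate synthase (Glt1) turns glutamine and 2-oxoglutarate back into glutamate, and the NAD-dependent Gdh2 breaks glutamate down and frees ammonium. When good nitrogen sources abound, nitrogen catabolite repression keeps many of these genes low. On poor sources, the activators Gln3 and Gat1 enter the nucleus and bind GATA motifs upstream of them, for which the repressors Dal80 and Gzf3 compete.

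The stretches of upstream DNA that held most GATA motifs are shown for 6 of the genes, because this motif is the site through which the pathway's regulators are known to act and because the set spans the lowest ratio (DAL80) and the highest ratio (MEP3) of the 10 genes. All were read 5′ to 3′ on the gene's strand from the RefSeq R64 genome, whose build may differ from the one behind the deposited values. Capitals mark GATAA on the gene's strand, or TTATC where the motif lies on the other strand.
MEP2 (chrXIV:356955-357154, plus strand, bases 498 to 299 before the start codon): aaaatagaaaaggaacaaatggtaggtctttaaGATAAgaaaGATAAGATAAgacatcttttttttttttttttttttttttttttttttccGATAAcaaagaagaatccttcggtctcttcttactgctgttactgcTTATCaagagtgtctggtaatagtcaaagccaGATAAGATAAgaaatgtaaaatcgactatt
GAT1 (chrVI:95616-95815, plus strand, bases 350 to 151 before the start codon): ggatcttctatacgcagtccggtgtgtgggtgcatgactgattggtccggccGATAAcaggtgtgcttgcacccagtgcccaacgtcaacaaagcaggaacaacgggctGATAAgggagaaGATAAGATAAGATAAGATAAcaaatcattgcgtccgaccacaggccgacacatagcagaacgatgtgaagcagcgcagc
GDH3 (chrI:31211-31410, plus strand, bases 356 to 157 before the start codon): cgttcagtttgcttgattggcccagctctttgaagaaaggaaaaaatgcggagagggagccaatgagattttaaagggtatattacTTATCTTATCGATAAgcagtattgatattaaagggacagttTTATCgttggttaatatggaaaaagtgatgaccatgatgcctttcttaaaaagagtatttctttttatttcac
DAL80 (chrXI:506522-506721, plus strand, bases 376 to 177 before the start codon): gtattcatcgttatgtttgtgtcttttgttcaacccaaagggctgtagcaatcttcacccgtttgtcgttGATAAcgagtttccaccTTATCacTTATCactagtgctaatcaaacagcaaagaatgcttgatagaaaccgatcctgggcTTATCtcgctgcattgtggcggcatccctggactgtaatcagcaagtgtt
GLN1 (chrXVI:641824-642023, plus strand, bases 384 to 185 before the start codon): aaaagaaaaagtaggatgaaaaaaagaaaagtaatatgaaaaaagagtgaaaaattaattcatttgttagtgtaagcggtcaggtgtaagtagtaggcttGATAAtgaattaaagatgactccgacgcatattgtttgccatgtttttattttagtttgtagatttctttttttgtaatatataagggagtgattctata
MEP3 (chrXVI:812754-812953, minus strand, bases 500 to 301 before the start codon): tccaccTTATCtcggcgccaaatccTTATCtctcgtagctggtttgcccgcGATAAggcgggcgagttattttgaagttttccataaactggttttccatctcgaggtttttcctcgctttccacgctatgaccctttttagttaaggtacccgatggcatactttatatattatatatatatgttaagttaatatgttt
The MEP2 stretch held 7 GATAA motifs and that of GAT1 held 6, of which the last 4 followed each other without a gap. The stretch of DAL80 reached into the annotated gene YKR032W and that of MEP2 into YNL143C. Over the 500 bases before the start codon, MEP2 had 8 motifs, DAL80 7, GAT1 6, MEP3 5, MEP1 and GDH3 4 each, GLT1 and GDH1 3 each, GLN1 2 and GDH2 0. The median was 4 motifs in the 10 genes and 1 in the 6000 protein-coding genes with a full stretch of this length, and at least 3 motifs were found in 8 of the 10 genes and in 20.5% of all genes. The longer motif GATAAG, which contains GATAA, occurred at least 2 times upstream of 8 of the 10 genes and of 3.63% of all genes. GLN1 and GDH2 were the members without it. Both strands were searched. A match describes the letters only, and a relation between the number of motifs and the ratios was not tested.

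**Figure D1:**
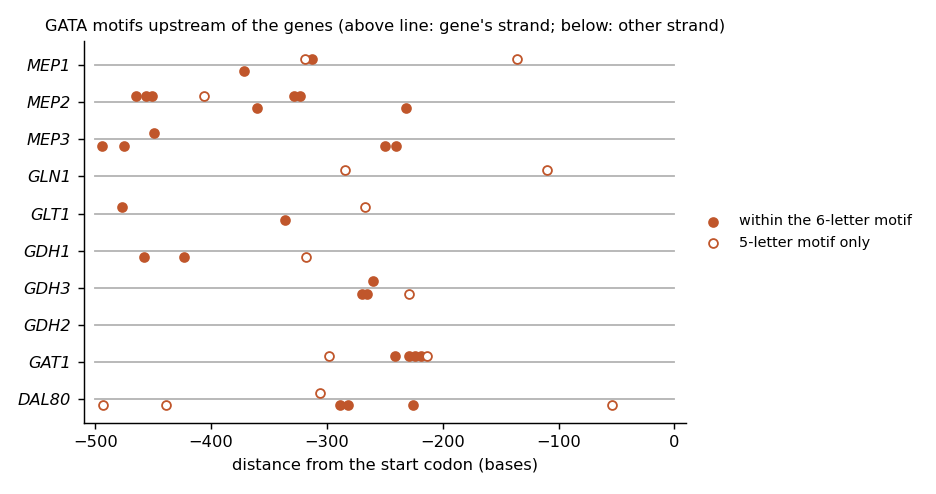
Positions of GATA motifs in the 500 bases before the start codon of each gene, plotted as distance from the start codon in bases, with motifs on the gene's strand above the line and those on the other strand below it. Filled points are part of GATAAG and open points are GATAA alone; MEP2 had 8 motifs and GDH2 had 0.

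Values are in TPM, which is corrected for transcript length and scaled per library, so levels can be compared between genes. The table keeps no read counts, which leaves sequencing depth unknown. A single library per medium gives no replicate spread, so no p-value was computed here. The paper called changed genes by a p-value together with a limit of 2-fold, and its calls were not used here. Log2 ratios of YPM over YPD2 were formed with 1 TPM added to both values for all rows whose mean reached 1 TPM, and 2-fold on this scale was the limit for a change. All 10 genes passed the minimum. Of the 6350 rows compared, 208 were higher and 327 lower in YPM, and the median row had a log2 ratio of -0.13. When the median row was set to no change, which moved log2 ratios up by 0.13, 255 rows were higher and 255 were lower. As a check of the strain, which both libraries share and which cannot tell the media apart, GAL80, ALD6 and the genes LYS2, LEU2, URA3 and HIS3, which the parent strain BY4742 lacks, were all listed at 0 in both libraries. The 4 marker genes of the alpha mating type of BY4742 were listed between 15.7 and 317 TPM in YPM and between 13.6 and 427 TPM in YPD2, with log2 ratios between -0.51 (SAG1) and 0.94 (STE3). Of the 5 marker genes of the other mating type, MFA1 and MFA2 were listed at 0, and the other 3 reached at most 8.70 TPM in YPM, against 7.43 TPM in YPD2, with log2 ratios between -0.58 (ASG7) and 0.20 (STE2).

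Of the 10 genes, 9 were listed lower in YPM, as were 63.1% of all rows compared, and 1, MEP3, was higher. DAL80, GLN1 and GDH3 fell past the 2-fold limit, 3 of 10 genes against 5.15% of all rows in this direction, and 0 rose past it, against 3.28% of all rows. The median log2 ratio of the 10 genes was -0.71, against -0.13 for all rows compared, and 9 of the 10 lay below the median row. At a limit of 1.5-fold, 7 of the 10 were lower in YPM, against 14.9% of all rows. GLT1, GDH1, GDH2 and MEP2 were the 4 added at this limit. GDH3 stood close to the 2-fold limit and came inside it, at a log2 ratio of -0.88, when the median row was set to no change.

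**Figure D2:**
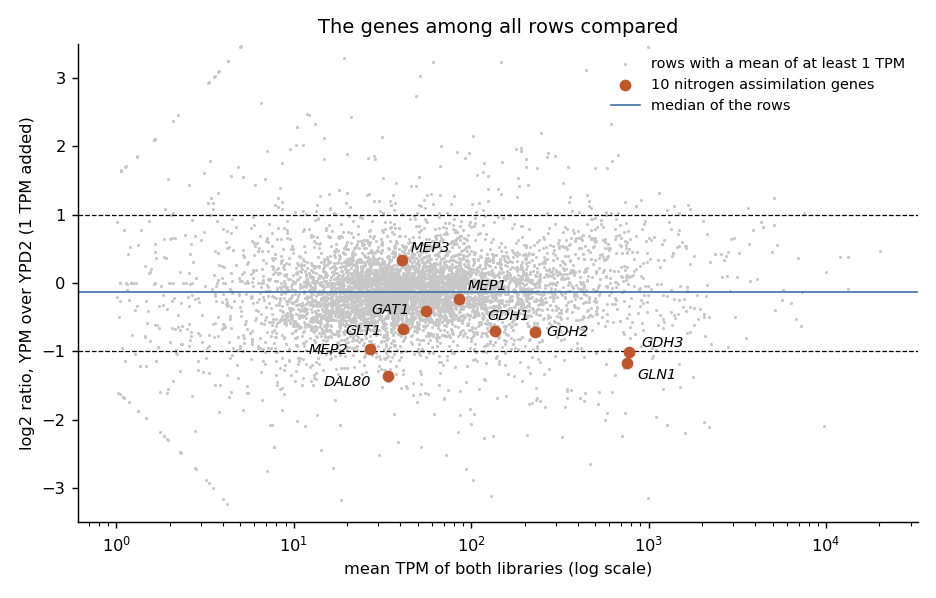
Log2 ratio of YPM over YPD2 (1 TPM added, vertical axis) against the mean TPM of both libraries (log scale) for the 6350 rows compared in grey and the 10 genes in orange, with dashed lines at 2-fold and a blue line at the median row. DAL80, GLN1 and GDH3 lie below the lower dashed line and MEP3 alone lies above 0; 48 rows beyond 3.5 in either direction are not drawn.

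The levels of the 10 genes ranged between 17.9 TPM (MEP2) and 512 TPM (GDH3) in YPM, and between 35.8 TPM (MEP2 and MEP3) and 1045 TPM (GLN1) in YPD2. GLN1 and GDH3 were the most abundant in both media and exchanged places, GDH3 leading in YPM and GLN1 in YPD2. GDH2, GDH1, MEP1 and GAT1 followed in this order in both media. Without replicates, it cannot be said which neighbours in these orders differ beyond their spread. The summed level of the 10 genes was 1493 TPM in YPM, against 2862 TPM in YPD2, and GLN1 and GDH3 made up 65.4% of it in YPM and 72.7% in YPD2.

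**Figure D3:**
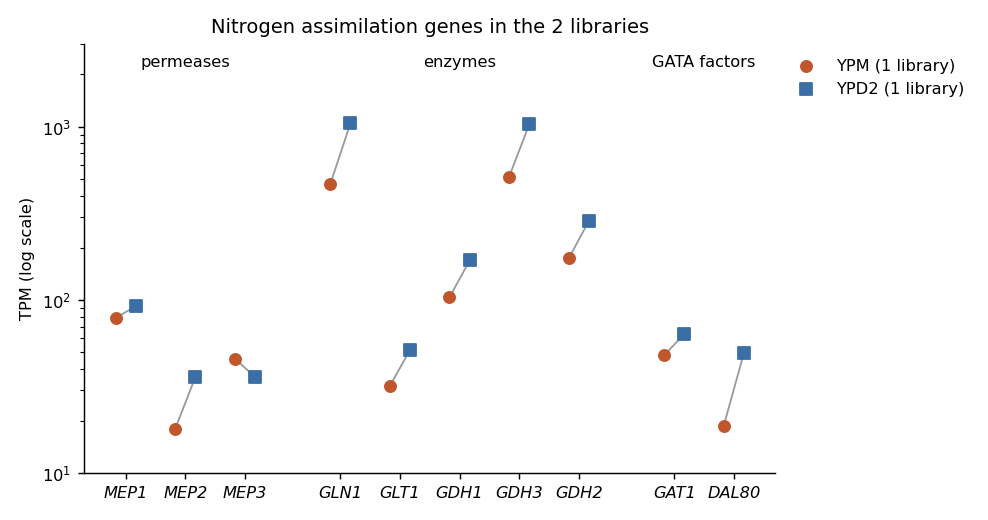
TPM (log scale) of each gene in the YPM library (orange circles) and the YPD2 library (blue squares), ordered as permeases, enzymes and regulators, with a grey line joining the 2 values of a gene. The lines of 9 genes lead to a lower value in YPM and that of MEP3 to a higher one, 45.7 TPM in YPM against 35.8 TPM in YPD2.

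None of the 3 permease genes passed the 2-fold limit. MEP2 (YNL142W, chrXIV:357453-358952), which encodes the high-affinity ammonium permease that also takes part in the switch to filamentous growth, was listed at 17.9 TPM in YPM, against 35.8 TPM in YPD2. Its log2 ratio of -0.96 stood just inside the 2-fold limit, and 5.62% of all rows had a lower one. MEP3 (YPR138C, chrXVI:810984-812453), the permease of high capacity and low affinity, was listed at 45.7 TPM in YPM, against 35.8 TPM in YPD2, a log2 ratio of 0.34. It was the one member above the median row, and 85.6% of all rows had a lower ratio. MEP1 (YGR121C, chrVII:731449-732927) was the most abundant of these permease genes, with 78.3 TPM in YPM, against 91.9 TPM in YPD2. Its log2 ratio of -0.23, or -0.10 with the median row at no change, was near that of the typical row. In YPD2, MEP2 and MEP3 were listed at the same level, so that each made up 21.9% of the summed permease TPM. In YPM the share was 12.6% for MEP2 and 32.2% for MEP3, while MEP1 held 55.1% in YPM and 56.2% in YPD2. The sum moved little, with 142 TPM in YPM, against 164 TPM in YPD2. MEP3 therefore stood at 2.55 times the level of MEP2 in YPM. Summed with its closest paralog MEP1, its log2 ratio was -0.04.

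GLN1, which encodes glutamine synthetase, showed the largest difference in TPM among the 10 genes. GLN1 (YPR035W, chrXVI:642208-643320) was listed at 464 TPM in YPM, against 1045 TPM in YPD2, a log2 ratio of -1.17, and 3.69% of all rows had a lower ratio. The glutamate synthase gene GLT1 (YDL171C, chrIV:149203-155640), which has the longest coding sequence of the 10 genes at 6438 bases, was listed at 31.7 TPM in YPM, against 51.4 TPM in YPD2, a log2 ratio of -0.68. GLN1 was therefore 14.6 times as abundant as GLT1 in YPM and 20.3 times in YPD2.

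Of the 3 glutamate dehydrogenase genes, GDH3 passed the 2-fold limit and GDH1 and GDH2 stayed inside it. GDH3 (YAL062W, chrI:31567-32940), whose enzyme makes glutamate and is known to be induced on nonfermentable carbon sources, was listed at 512 TPM in YPM, against 1035 TPM in YPD2, a log2 ratio of -1.01. GDH1 (YOR375C, chrXV:1041678-1043042) encodes the isoform that makes glutamate during growth on glucose, and it was listed at 103 TPM in YPM, against 169 TPM in YPD2, a log2 ratio of -0.70. GDH3 thus held most of the summed level of this pair in both media, 83.2% in YPM and 86.0% in YPD2. Summed over both paralogs, the level was 616 TPM in YPM, against 1203 TPM in YPD2, a log2 ratio of -0.97. GDH2 (YDL215C, chrIV:70640-73918), whose enzyme runs the other way and degrades glutamate, was listed at 173 TPM in YPM, against 286 TPM in YPD2, a log2 ratio of -0.72. The summed GDH1 and GDH3 level, itself inside the limit, was 3.55 times that of GDH2 in YPM and 4.21 times in YPD2.

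Of the regulator genes, DAL80 (YKR034W, chrXI:506898-507707), a repressor of nitrogen degradation genes that is itself controlled by nitrogen catabolite repression, had the lowest ratio of the 10 genes. It was listed at 18.7 TPM in YPM, against 49.5 TPM in YPD2, a log2 ratio of -1.36, and 2.68% of all rows had a lower ratio. GAT1 (YFL021W, chrVI:95966-97498), an activator of the same genes, was listed at 47.8 TPM in YPM, against 63.5 TPM in YPD2, a log2 ratio of -0.40. GAT1 was therefore 2.55 times as abundant as DAL80 in YPM and 1.28 times in YPD2. A row described in the table as overlapping DAL80, YKR033C, was listed at 7.19 TPM in YPM, against 9.93 TPM in YPD2, and one overlapping GAT1, YFL021C-A, at 4.61 TPM in YPM, against 5.29 TPM in YPD2. Counting by strand is not stated, so reads of these rows and of the genes they overlap cannot be told apart.

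The members differ enough in sequence that none shares a 50-base stretch with another place in the genome. Each of the 10 genes has 1 coding exon in R64, and 0 of the 50-base words of any of them occur elsewhere in that genome on either strand. The closest pair, GDH1 and GDH3, had 76.7% identical bases over 1365 aligned bases, followed by MEP1 and MEP3 with 71.2%, while MEP2 had 59.0% with MEP1 and 59.5% with MEP3.

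The other regulators of the pathway did not reach the limit. GLN3, the GATA activator that acts beside Gat1, was listed at 24.6 TPM in YPM, against 18.4 TPM in YPD2, the highest log2 ratio of the 11 listed regulators at 0.40. GZF3, a repressor related to Dal80, had a log2 ratio of -0.43, with 30.4 TPM in YPM, against 41.4 TPM in YPD2. URE2, whose product holds Gln3 in the cytoplasm on good nitrogen sources, was listed at 85.8 TPM in YPM, against 88.0 TPM in YPD2, a log2 ratio of -0.04. The lowest ratio was that of UGA3, the activator of genes for use of gamma-aminobutyrate, at -0.66. The median of the 11 genes was -0.16, near the -0.13 of all rows. In either direction 0 genes were past the limit, against 5.15% of all rows lower and 3.28% higher.

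Genes for the use of poor nitrogen sources are known targets of nitrogen catabolite repression. Of 19 such genes, 2 fell past the limit, against 5.15% of all rows, and 0 rose past it, against 3.28%. Only 1 of them was past it with the median row at no change or with 5 TPM added. The median log2 ratio was -0.33. GAP1, the general amino acid permease, fell most, with 40.2 TPM in YPM, against 197 TPM in YPD2, a log2 ratio of -2.27. OPT2, an oligopeptide transporter gene, was listed at 17.7 TPM in YPM, against 37.6 TPM in YPD2, a log2 ratio of -1.05, which became -0.92 with the median row at no change. The arginase gene CAR1, with 33.3 TPM in YPM, against 67.4 TPM in YPD2, was 2.02-fold lower in TPM and came just inside the limit once 1 TPM was added, so that 3 of the 19 genes were lower with 0.1 TPM or nothing added. The highest ratio was that of the allantoin permease gene DAL4, at 0.37. The allantoin pathway genes DAL1, DAL2, DAL3, DAL4, DAL5 and DAL7 stood below the median TPM of all rows compared, 41.5 TPM in YPM and 45.2 TPM in YPD2. The most abundant of them, DAL2, came close to it, with 33.6 TPM in YPM, against 43.7 TPM in YPD2. DAL5, an allantoate permease gene, was listed at 23.0 TPM in YPM, against 22.5 TPM in YPD2.

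The 2-oxoglutarate that carries ammonium into glutamate comes from citrate. Of 12 genes for its supply, 11 were listed lower in YPM, as were 63.1% of all rows compared, and the median log2 ratio was -0.53. Past the limit, 3 fell, against 5.15% of all rows, and 0 rose, against 3.28%. CIT3, for a mitochondrial citrate and methylcitrate synthase, was listed at 115 TPM in YPM, against 409 TPM in YPD2, a log2 ratio of -1.82. IDP3, for the peroxisomal isocitrate dehydrogenase, stood at 55.6 TPM in YPM, against 165 TPM in YPD2 (-1.55), and ACO1, for aconitase, at 436 TPM in YPM, against 1007 TPM in YPD2 (-1.21). ODC2, a mitochondrial carrier for 2-oxoglutarate, was the one gene of the list above 0, at 0.31. The retrograde pathway is known to raise several of these genes when glutamate is short. Of its 5 listed genes 0 were past the limit, against 5.15% of all rows lower and 3.28% higher. Their median was -0.15, from RTG3 at 0.35 to its target DLD3 at -0.67. RTG1, RTG2, RTG3 and MKS1 in this list encode regulators, so the count says little about the genes that the pathway raises. Of the supply genes, CIT2 was listed at 1426 TPM in YPM, against 2195 TPM in YPD2 (-0.62). CIT1 stood at -0.33, IDH1 at -0.63 and IDH2 at -0.43.

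Genes for the proposed export of ammonium were lower in YPM. ATO3 was listed at 101 TPM in YPM, against 343 TPM in YPD2, a log2 ratio of -1.76, and ATO2 at 146 TPM in YPM, against 369 TPM in YPD2, a log2 ratio of -1.33. ADY2, the acetate transporter gene of the same family, had the lowest ratio of this list, at -3.15. All 3 genes were past the limit, against 5.15% of all rows in this direction. In YPD2 the level of ATO3 was above those of MEP1, MEP2 and MEP3 summed, and in YPM it was below that sum of 142 TPM. ATO2 and ADY2 were listed above the sum in both media, with ADY2 at 199 TPM in YPM, against 1781 TPM in YPD2. In YPM, ATO2 was above it only narrowly, and without replicates that order cannot be settled.

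**Figure D4:**
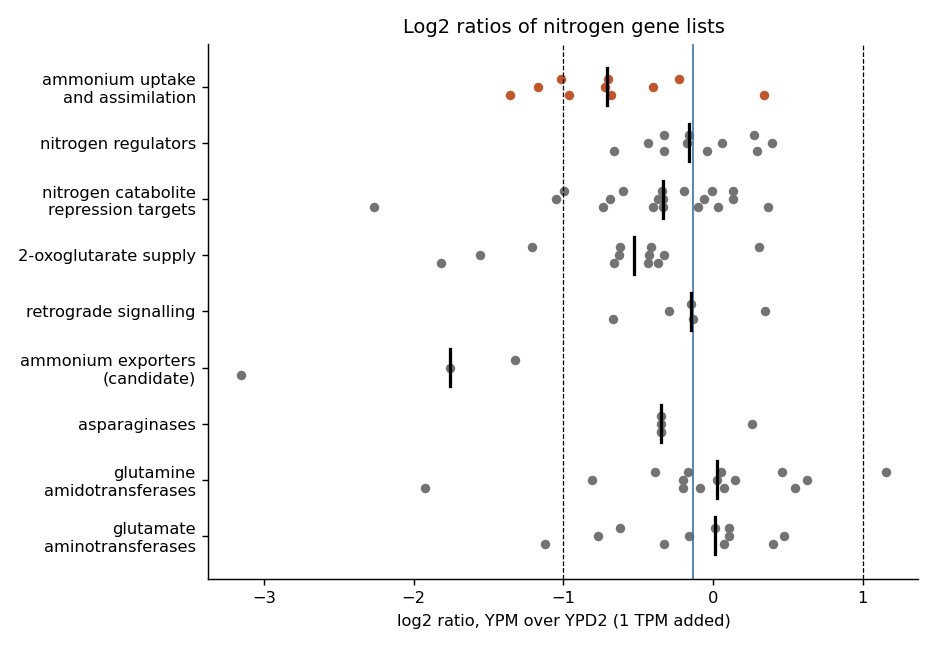
Log2 ratio of YPM over YPD2 (1 TPM added) for every gene of the lists, 1 point per gene, with black bars at list medians, dashed lines at 2-fold and a blue line at the median of all 6350 rows. The 10 genes (orange) have their median at -0.71 and the 11 regulators have theirs at -0.16; vertical offsets within a list only separate the points.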

How the data were processed

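RNA was extracted by the authors after 24 h, polyA-selected and sequenced, and expression was estimated with RSEM. The deposited table holds TPM, 1 column per library, although its name speaks of raw counts. HISAT2 and StringTie are also named in the submitters' processing notes; builds, versions, read length and use of strand are not given in the sources used here. The column MYPD was taken as YPM, which the labels describe as modified YPD. RefSeq R64 gave symbols for 6044 of 7126 rows, positions, upstream sequences and shared 50-base words. The log2 ratio of YPM over YPD2 was computed after 1 TPM was added to each value; rows whose mean reached 1 TPM entered the comparison, with a limit of 2-fold. No test was run, because 1 library per medium gives no replicate spread. The members and lists were chosen with earlier results of these data known. All members were named, and of each other list the genes past the limit, the largest rise and the largest fall; other genes, CAR1 and DAL5 among them, were chosen after their values were seen. Printed stretches are the 200 bases with most GATAA motifs that end at least 150 bases before the start codon. Alternatives were other pseudocounts, minimum values, scalings and limits, and summed paralogs. The code for the calls, not the calls on these libraries, was tested on simulated data. Python 3.11.15, pandas 2.3.3, numpy 2.4.6, matplotlib 3.10.9 and Biopython 1.88 were used.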

Additional observations from a re-analysis of the deposited data

How the results depend on the processing

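The direction of each of the 10 genes, taken singly, was the same under every pseudocount, minimum and scaling tried, and DAL80 and GLN1 stayed past the 2-fold limit under all of them. The directions could not have changed, because an added value keeps the sign. The largest scaling shift, 0.135, was also smaller than the smallest member ratio, that of MEP1 at -0.23. GDH3 came inside the limit in 3 scalings, at log2 ratios of -0.88 with the median row at no change, -0.98 with the same sum over protein-coding rows and -0.97 without the 20 most abundant rows. It was also inside it when GDH1 and GDH3 were summed (-0.97), and MEP3, alone at 0.34, stood at -0.04 when summed with MEP1. With 5 TPM added, 203 rows of the table were lower in YPM and 1 of the nitrogen catabolite repression targets was, against 3 with 0.1 TPM or nothing added. With the median row at no change, 1 of these 19 targets and 0 of 11 glutamate aminotransferase genes were lower, as were 255 rows of the table. A limit of 1.5-fold gave 7 of the 10 genes lower in YPM. Of the 6350 rows, 945 (14.9%) were lower and 500 were higher. Lower at this limit were 1 of 11 regulators, 6 of 19 nitrogen catabolite repression targets and 6 of 12 genes for 2-oxoglutarate supply. So were 1 of 5 retrograde signalling genes, 2 of 15 glutamine amidotransferases (2 were higher) and 3 of 11 glutamate aminotransferases. These changes follow from the construction of the settings, a common shift of all ratios, a larger added value or a smaller limit. No paired analysis was possible because each medium has 1 library. Depth is unknown, so no interval can be given for any value, and MEP2 and DAL80, the least abundant members in YPM, rest on the lowest values.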

Other observations

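Of 15 glutamine amidotransferase genes, whose enzymes take nitrogen from glutamine, 8 were listed higher in YPM and the median log2 ratio was 0.03. The other 7 were listed lower, against 63.1% of all rows compared. Past the limit, 1 of the 15 rose, against 3.28% of all rows, and 1 fell, against 5.15%. ASN2, for an asparagine synthetase, rose past the limit, with 107 TPM in YPM, against 47.6 TPM in YPD2 (1.16), while its paralog ASN1 stood at 131 TPM in YPM, against 139 TPM in YPD2. URA2, for the first steps of pyrimidine synthesis, fell past it, with 35.6 TPM in YPM, against 138 TPM in YPD2 (-1.93). Of 11 glutamate aminotransferase genes, with a median of 0.01, 1 fell past the limit, against 5.15% of all rows, and 0 rose, against 3.28%. This was BAT2, for the cytosolic branched-chain aminotransferase, with 209 TPM in YPM, against 458 TPM in YPD2 (-1.12). With the median row at no change, BAT2 stood inside the limit at -0.99. BAT1, for the mitochondrial branched-chain aminotransferase, stood at 91.7 TPM in YPM, against 69.1 TPM in YPD2 (0.40). The highest ratio was that of HIS5 at 0.47.

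Asparaginases free ammonium from asparagine. The 4 copies of ASP3 were listed with the same value, 101 TPM in YPM, against 129 TPM in YPD2 each, a log2 ratio of -0.35, and values of near-identical copies cannot be told apart. ASP1, the other asparaginase gene, had a log2 ratio of 0.26, with 23.5 TPM in YPM, against 19.5 TPM in YPD2.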
